A study of Drosophila melanogaster with 18 samples.

Results

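The diptericins, attacins and cecropins are mostly secreted antibacterial peptides of the fly, encoded by 10 genes: DptA (Dpt in older names), DptB, AttA, AttB, AttC, AttD, CecA1, CecA2, CecB and CecC. They were taken by name, and all 10 were present among the 10884 genes of the male table and the 10480 genes of the female comparison. The series holds 18 RNA-seq libraries of whole Drosophila melanogaster heads in 6 groups of 3. The groups were females homozygous for the foxo allele c431 (foxoc431/c431) at day 3 after eclosion, wild-type females at day 3, and wild-type males at days 3, 15, 30 and 45. Wild type was line 5905, a w1118 stock, and all flies were kept at 25 °C. Foxo is a forkhead transcription factor that insulin signalling holds in check. The mutant rests on 1 allele and 1 control line, and a head sample mixes neurons, photoreceptors, glia, head fat body and blood cells. The study asked which genes depend on foxo and how they change with age.

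In the fly, peptidoglycan of the kind found in Gram-negative bacteria is sensed by receptors such as PGRP-LC and PGRP-LE. They signal through the adaptor Imd and a kinase cascade to the NF-kB factor Relish (Rel), which switches on diptericins, attacins and cecropins. A second route, the Toll pathway, acts through Dif and Dorsal and drives Drosomycin and the Bomanins more strongly. Diptericins and attacins are glycine-rich peptides that act mainly on Gram-negative bacteria, and cecropins are short helical peptides that disrupt bacterial membranes. Fat body is the main systemic source of these peptides, and glia, other head tissues and barrier epithelia can also make them. In bulk tissue, fewer cells of a type and less RNA per cell cannot be told apart.

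The genes lie in 5 places in the Ensembl annotation of dm6, the build named in the submitters' notes. On chromosome 2R, DptA (18865765 to 18866260) and DptB (18867391 to 18867895) are neighbours, as are AttA (14747362 to 14748215) and AttB (14749223 to 14750165), and AttC stands alone (13393705 to 13394667). On 3R, AttD stands alone (17625268 to 17626086). The 4 cecropins form a cluster on 3R, in the order CecA1 (30210874 to 30211273), CecA2 (30212156 to 30212568), CecB (30213315 to 30213797) and CecC (30216484 to 30216938). CecB is on the minus strand and the other 9 genes are on the plus strand. The end of DptB overlaps CG43109 by 48 bases and AttC overlaps CG4744 by 53 bases, both on the opposite strand, and the library kit is not said to keep strand. AttA and AttB, and CecA1 and CecA2, are close copies between which reads could have been divided unevenly, so each pair is also given as a sum.

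Male libraries held 2999956 to 4102364 reads each, and 1 read was worth 0.835 to 1.22 of the authors' normalised counts. Head marker genes were abundant in every male library, the 6 photoreceptor markers summing to 101535 to 239036 normalised counts. Every wild-type male library correlated with the others of its age at a mean Pearson r of 0.982 or more across genes. The replicate samples are not said to come from separate cultures, so the tests measure the spread between these samples, which may be technical. The targeted gene, foxo, was 1.25-fold higher in the mutant in the authors' deposited table (log2 0.33, SE 0.09, adjusted p = 0.00465). Its mRNA level alone does not check the genotype, since the table does not say which exons were counted. In male heads foxo averaged 391 ± 23.4, 397 ± 23.6, 477 ± 13.7 and 474 ± 24.9 normalised counts at days 3, 15, 30 and 45 (SD, n = 3 each).

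Both diptericins were scarce in the heads of young males and abundant in those of old males. DptA had 25.6, 18.0 and 7.59 normalised counts at day 3, 140.4, 32.5 and 29.2 at day 15, 155.2, 155.4 and 122.8 at day 30, and 707, 349 and 1191 at day 45, in replicates 1 to 3. No day 45 library overlapped any of the other ages. Its mean was 749 ± 423 at day 45 and 17.1 ± 9.06 at day 3, a log2 change of 5.35 (SE 0.50, limma adjusted p = 5.29e-07). DptB had 28.1, 28.0 and 19.5 normalised counts at day 3, 168, 27.2 and 34.3 at day 15, 170.2, 130.4 and 119.6 at day 30, and 558, 345 and 1142 at day 45. Replicates 2 and 3 of day 15 stayed close to day 3, and replicate 1 of day 15 lay at the level of day 30. The log2 change of DptB at day 45 against day 3 was 4.55 (SE 0.48, limma adjusted p = 2.00e-06). DptA made up 50.2% to 55.9% of the DptA and DptB reads in the day 45 libraries, against 28.0% to 47.7% at day 3.

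AttC, the attacin with the most counts, led the whole group. It had 100.1, 94.0 and 33.6 normalised counts at day 3, 582, 93.2 and 123 at day 15, 708, 576 and 561 at day 30, and 2470.4, 1127 and 4141 at day 45. The lowest day 45 library lay above the highest day 30 library, and every day 30 library lay above the day 3 libraries. AttC averaged 2579.5 ± 1509.9 at day 45 and 75.9 ± 36.8 at day 3, a log2 change of 5.03 (SE 0.54, limma adjusted p = 2.21e-06). AttC gave 50.02%, 51.6%, 52.1% and 51.7% of the summed counts of the 10 genes at days 3, 15, 30 and 45.

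AttB and AttA, the neighbouring pair, both rose but ran apart in 1 old library. AttB had 24.4, 12.01 and 18.4 normalised counts at day 3, 93.6, 43.98 and 31.7 at day 15, 144, 141 and 151 at day 30, and 399, 256 and 997 at day 45. Its 4 ages did not overlap at all, and at day 30 its replicates were closer together than at any other age. AttA had 6.11, 1.00 and 1.08 at day 3, 31.5, 5.24 and 5.85 at day 15, 38.8, 31.1 and 54.6 at day 30, and 109, 48.6 and 59.6 at day 45. Its day 45 values overlapped those of day 30. Against day 3, the day 45 log2 change was 4.65 for AttB (SE 0.39, limma adjusted p = 2.05e-07) and 4.48 for AttA (SE 0.56, limma adjusted p = 9.57e-06). AttA made up 5.64% of the reads of the pair in replicate 3 of day 45, the library with the most AttB, against 21.5% and 16.0% in replicates 1 and 2. The share was 5.56% to 20% at day 3. As a sum, AttA and AttB changed by 4.72 on the log2 scale (limma adjusted p = 2.16e-07).

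AttD, an attacin that differs from the others in lacking a signal for secretion, was barely detected. It was listed at 0, 0 and 1.08 normalised counts at day 3, 1.91, 0 and 1.67 at day 15, 3.98, 1.00 and 2.10 at day 30, and 15.2, 3.35 and 26.01 at day 45. The 45 reads at day 45 against 1 read at day 3 gave a ratio of 38.2, with an exact 95% interval of 6.51 to 1540 that covers counting error only.

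**Figure D1:**
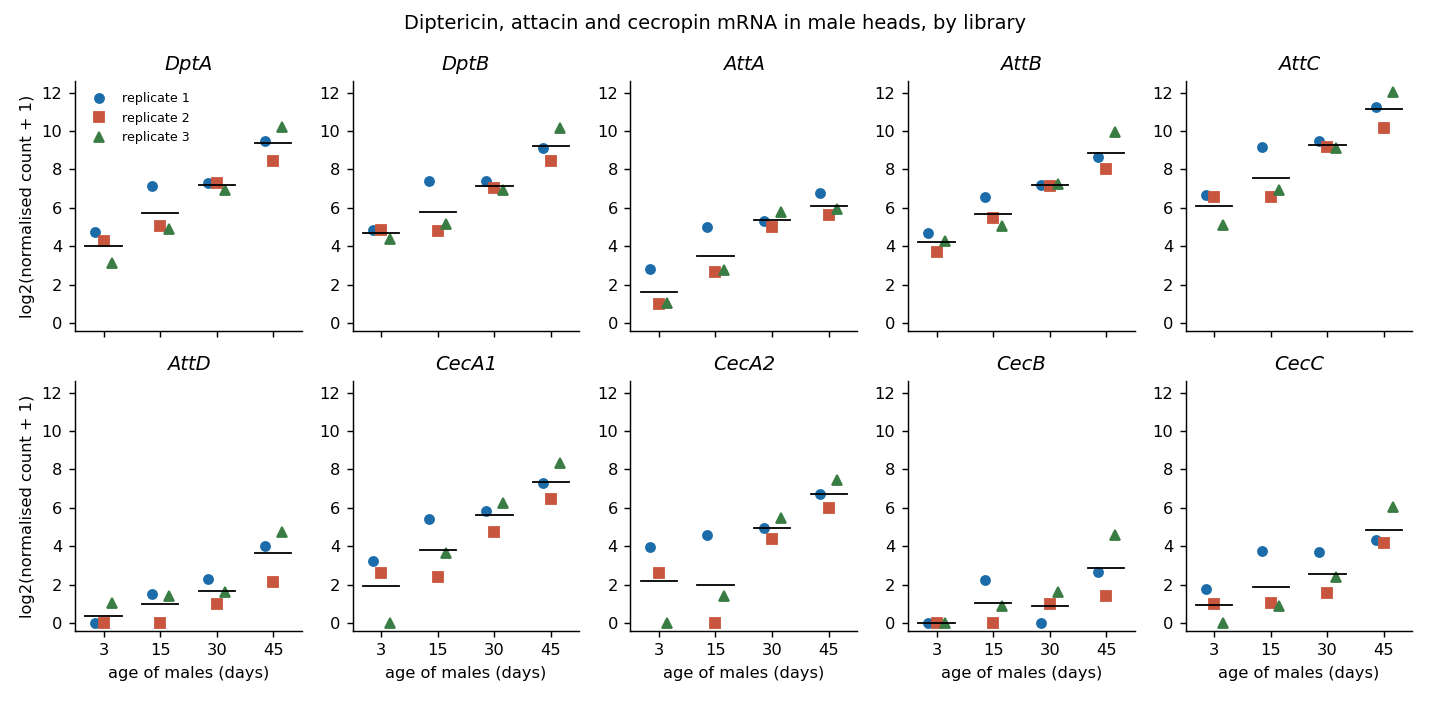
Normalised count of each of the 10 genes in each male head library, as log2(count + 1), by age in days; symbols are replicates 1 to 3 and black lines are the means of the log2 values. In every panel the 3 day 45 libraries lie above the 3 day 3 libraries, and replicate 1 is the highest day 15 library.

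Among the cecropins CecA1 had the most counts from day 15 on and CecB the fewest at day 45. CecA1 had 8.55, 5.003 and 0 normalised counts at day 3, 42.0, 4.19 and 11.7 at day 15, 55.7, 26.1 and 74.5 at day 30, and 154, 88.0 and 326 at day 45. The day 30 and day 45 libraries did not overlap each other or day 3, and its log2 change at day 45 against day 3 was 5.42 (SE 0.75, limma adjusted p = 2.76e-05). CecA2 had 14.7, 5.003 and 0 at day 3, 22.9, 0 and 1.67 at day 15, 29.9, 20.1 and 44.1 at day 30, and 104, 63.7 and 172 at day 45. Day 15 replicate 1 lay above the day 3 libraries and the other day 15 libraries within their range. Every day 30 library lay above day 3, and day 30 overlapped day 15. CecA2 changed by 4.54 at day 45 against day 3 on the log2 scale (SE 0.93, limma adjusted p = 0.00105). Taken as a sum, CecA1 and CecA2 changed by 5.39 (limma adjusted p = 0.00019).

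CecC had 2.44, 1.00 and 0 normalised counts at day 3, 12.4, 1.05 and 0.835 at day 15, 11.9, 2.01 and 4.198 at day 30, and 18.8, 16.8 and 63.9 at day 45. Only at day 45 were all 3 libraries above the earlier ages, and the log2 change against day 3 was 3.90 (SE 0.78, limma adjusted p = 0.000846). CecB was listed at 0 in the 3 day 3 libraries, at 3.82, 0 and 0.835 at day 15, at 0, 1.00 and 2.10 at day 30, and at 5.38, 1.68 and 22.8 at day 45. With 29 reads at day 45 and none at day 3, CecB was at least 8.20-fold higher at day 45, taking 3 reads over the group as the floor of day 3.

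Per kilobase of the longest transcript, levels at day 45 ran from AttC at 2866 normalised counts through DptB at 1518 and DptA at 1510 to AttB at 626, CecA1 at 559 and CecA2 at 319. AttA (91.8), CecC (85.9), CecB (23.4) and AttD (20.04) followed. The 3 libraries differed from each other by 2.25-fold to 13.6-fold in these genes. The ranges of neighbours in this order therefore overlapped, except those of CecA2 and AttA. Within each of the 3 libraries, though, AttC lay above DptB, DptA above AttB, CecA1 above CecA2, CecA2 above AttA and CecC above CecB. The order of DptB and DptA, AttB and CecA1, AttA and CecC, and CecB and AttD changed from library to library.

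Day 45 against day 3 gave the largest median change of the 5 age comparisons made. A gene was tested if it had at least 10 normalised counts in at least 3 of the 12 male libraries, which 8 of the 10 did, and AttD and CecB did not. CecC passed that filter only through the 3 day 45 libraries, where it was high, so its call and the count over the tested genes are given as a description. All 8 were called higher at a limma adjusted p under 0.05, against 17.4% of all 8921 genes called higher. Their median log2 change was 4.60, beside 0.004 for all genes tested, and all 8 stood among the 20 genes with the highest log2 change. AttA and CecA1 had no day 3 library at 10 counts either, but passed without day 45. With no filter, all 10 were called higher, against 14.4% of 10884 genes, with log2 changes of 3.28 for AttD (adjusted p = 0.000952) and 2.89 for CecB (adjusted p = 0.00702). In all 10, the day 45 libraries lay wholly above those of day 3, against 22.4% of tested genes. The size of the change in the scarcer genes moved with single libraries and with the pseudocount. CecA1 was at 4.45 and CecA2 at 3.45 without day 3 replicate 3, where both were listed at 0, and at 6.08 and 5.43 without day 3 replicate 1. AttA was at 5.08 without day 3 replicate 1, and CecC at 3.30 without day 45 replicate 3. With a pseudocount of 10 the changes were 4.70 for DptA, 3.64 for CecA1, 2.90 for CecA2, 2.65 for AttA and 1.79 for CecC, all still called.

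**Figure D2:**
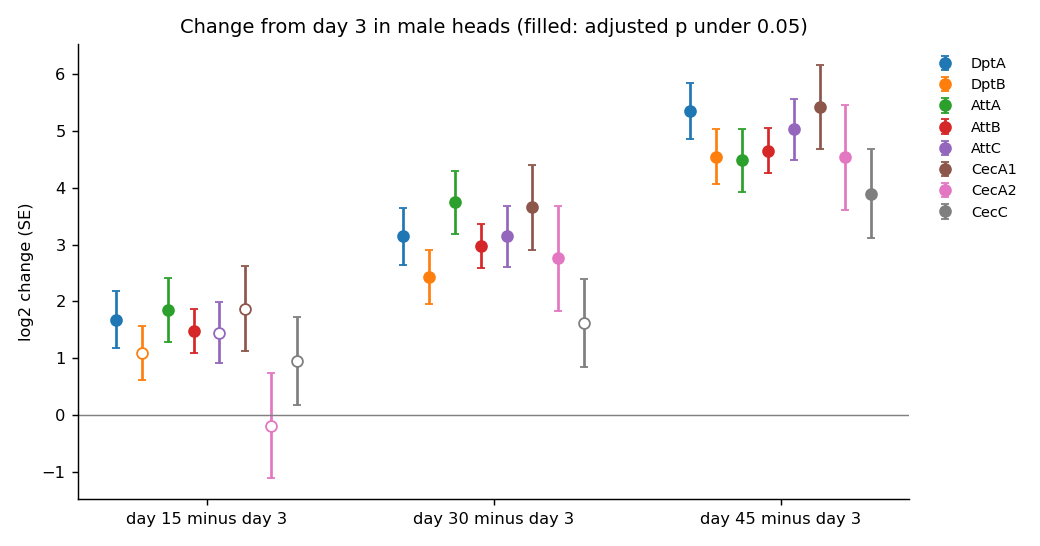
Limma log2 change from day 3 at days 15, 30 and 45 in male heads for the 8 genes tested, with bars of 1 SE; filled points have an adjusted p under 0.05. The points lie between 3.90 and 5.42 at day 45, and 3 of the 8 are filled at day 15.

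At day 30 against day 3, 7 of the 8 tested genes were called higher, against 15.0% of all genes, with a median log2 change of 3.06. The changes called ranged up to 3.74, and CecC was at 1.63 (SE 0.78, limma adjusted p = 0.123). For 7 of the 10 genes the day 30 libraries lay wholly above day 3, against 21.4% of tested genes. The call of CecA2 at day 30 was lost without day 3 replicate 3 (adjusted p = 0.175), without day 30 replicate 1 (adjusted p = 0.0603) and without day 30 replicate 3 (adjusted p = 0.0996).

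At day 15 against day 3 the picture depended on single libraries. DptA (log2 1.68, limma adjusted p = 0.0345), AttA (1.85, adjusted p = 0.0361) and AttB (1.48, adjusted p = 0.0193) were called higher, 3 of 8 against 5.95% of all genes. CecA2 was at -0.19 (adjusted p = 0.917). Without day 15 replicate 1, and equally without day 3 replicate 2, none of the 8 was called. Only 1 was called without day 3 replicate 3, and 5 were called without day 15 replicate 2. Groups did not overlap for DptA and AttB alone, 2 of 10, against 15.6% of tested genes.

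Between successive later ages no member passed the adjusted threshold with limma. At day 30 against day 15 the 8 log2 changes ran from 0.67 to 2.95 with a median of 1.60, and 0.919% of all genes were called higher. At an unadjusted p under 0.05, 7 of the 8 were higher, against 7.47% of all genes. Yet AttB was the only member whose day 30 libraries lay wholly above day 15. AttC, for example, had 582 normalised counts in day 15 replicate 1 and as few as 561 at day 30. Without day 15 replicate 1, 6 of the 8 were called higher, 2 without day 3 replicate 1, and 1 without day 45 replicate 2 or replicate 3. At day 45 against day 30 the changes ran from 0.74 for AttA to 2.27, with a median of 1.83, and 0.280% of all genes were called higher. At an unadjusted p under 0.05, 6 of the 8 were higher, against 4.63% of all genes. The day 45 libraries of 7 of the 10 genes, which include the untested AttD and CecB, lay wholly above day 30, against 6.98% of tested genes. The same comparison called 4 of the 8 without day 15 replicate 1 and 3 without day 45 replicate 2, and day 15 enters it only through the spread shared by the 4 ages. Across the 4 ages taken as 1 question, all 8 tested genes passed the moderated F test, against 31.5% of genes. CecC, which passed the filter only through day 45, is in this count. It is also in the 6 of 8 and the 7 of 10 at day 45 against day 30. These counts are therefore given as a description.

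The genes moved together from library to library within an age. Replicate 1 was the highest day 15 library in all 10 genes, and at day 45 replicate 3 was highest in 9 and replicate 2 lowest in 10. The exception was AttA, highest in replicate 1 of day 45. After removal of the mean of each age, the 28 pairs of the 8 tested genes had Pearson r of 0.55 to 0.98 over 12 libraries, with a median of 0.81. The highest was DptA with AttC, which lie in different places on 2R, and the lowest AttB with CecA1. These values share library, depth and scaling, and are given as a description. The residual SD within ages was 0.68 to 1.30 on the log2 scale in members of mean at least 50. The median was 0.132 among the 6389 genes of such a mean. AttA (0.92), CecA2 (1.61) and CecC (1.18) have lower means and are not in that set. Of the 5 members in that set, CecA1 ranked 4th, AttC 11th, DptA 14th, DptB 15th and AttB 25th by spread.

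**Figure D3:**
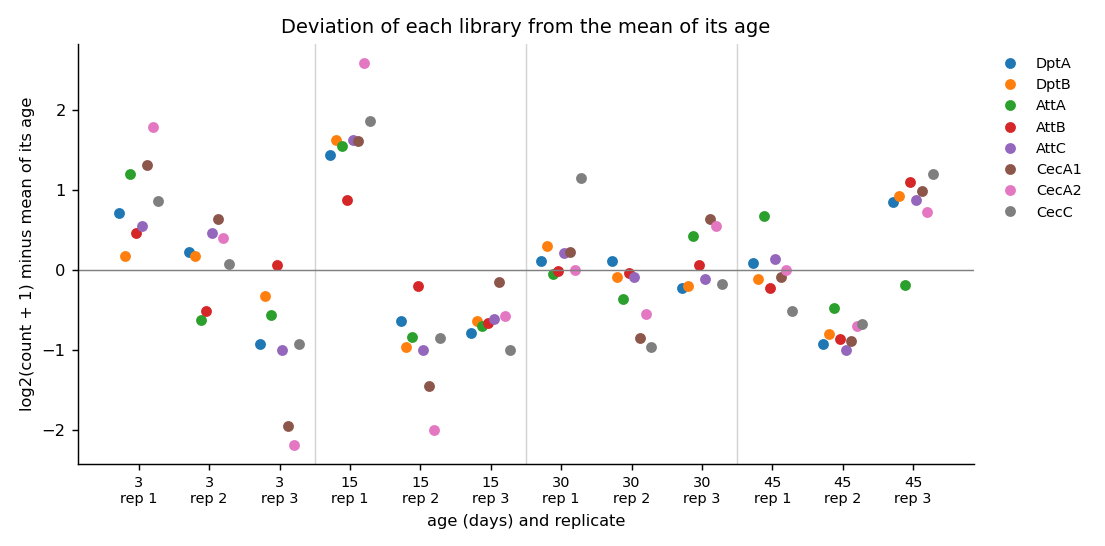
Deviation of each male library from the mean of its own age, in log2(count + 1), for the 8 genes tested. All 8 points of day 15 replicate 1 lie above 0, all 8 of day 45 replicate 2 lie below 0, and 7 of 8 in day 45 replicate 3 lie above 0.

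The 10 genes together summed to 152 ± 65.2 normalised counts at day 3, 515 ± 505 at day 15, 1179 ± 123 at day 30 and 4994 ± 2948 at day 45 (mean ± SD of 3 libraries). That was 0.0714% to 0.240% of the library total at day 45 and 0.00230% to 0.00573% at day 3.

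Most of the other defence peptides tested rose as well. Of 30 listed peptides, 23 were found by name in the male table, and Drosomycin (Drs) was not. Of those found, 19 were tested and 16 were called higher at day 45 against day 3 and none lower, with a median log2 change of 0.76. The members with the highest changes were Dro (drosocin, 4.34), Mtk (metchnikowin, an antifungal peptide, 3.62), Def (defensin, 2.93) and Listericin (2.87). In the activating arm of the Imd pathway 8 of 17 genes were called higher and 3 lower, with a median of 0.27. Over all genes tested, 17.4% were called higher and 18.3% lower, so the share of the arm called lower was near that of all genes. PGRP-SD, a secreted recognition protein, was higher by 3.10, Rel by 0.99, imd by 0.57 and Tab2, a kinase adaptor, by 0.52. Genes that restrain the pathway had 5 of 11 called higher and 1 lower, with a median of 0.34. Among them were PGRP-SC2 (5.04) and PGRP-LB (1.40), which cleave peptidoglycan, pirk (2.63), which acts on the receptors, and PGRP-LF (1.16), a receptor decoy.

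In the Toll pathway, 13 of 18 genes were called higher and 1 lower, with a median of 0.37. The largest changes called were PGRP-SA (1.31), cact (0.49), nec (0.46) and dl (0.43). Turandot stress peptides went the other way: 3 of 4 tested were called lower, against 18.3% of all genes. These were TotM at -1.12, TotC at -0.93 and TotA at -0.79. All these are limma log2 changes at an adjusted p under 0.05.

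**Figure D4:**
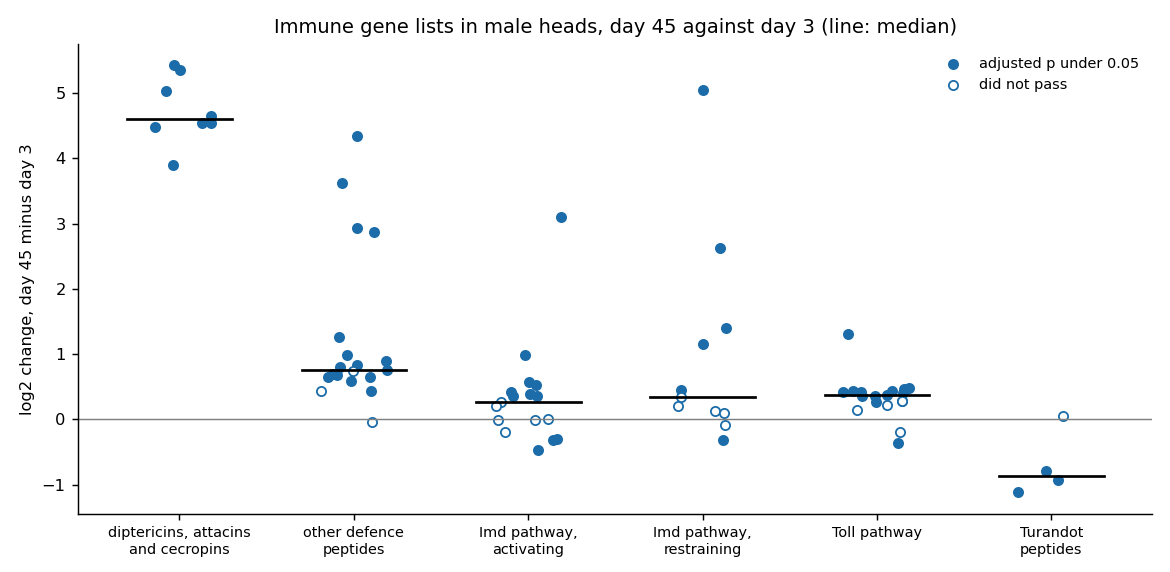
Log2 change at day 45 minus day 3 in male heads for each tested gene of 6 immune lists; filled points have a limma adjusted p under 0.05 and lines are list medians. The diptericin, attacin and cecropin points lie between 3.90 and 5.42, and PGRP-SC2 at 5.04 is the one gene of the other lists above 5.

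Markers of tissues that can make or carry these peptides moved as well. The counts called here stand beside 17.4% of all genes called higher and 18.3% called lower. The 10 fat body markers present in the table summed to 49704 to 61804 normalised counts at day 45 and 34687 to 38674 at day 3, with 3 of 9 tested called higher, Tsf1 (log2 1.24), FASN1 (0.45) and Yp2 (1.28), and a list median of 0.17. Without Tsf1, left out after its values were seen, the sum was 30577 to 34436 at day 45 and 25757 to 27523 at day 3. Lsp2 was at -1.52 (adjusted p = 0.137), and fit (-0.05), to (0.04) and Yp3 (0.03) lay near 0; these and Yp2 were named after their values were seen. The 12 hemocyte markers summed to 5255 to 5355 at day 45 and 5558 to 6403 at day 3, with 4 of 11 called higher and 5 lower. The 10 gut markers summed to 292 to 484 at day 45 and 159 to 252 at day 3, with 2 of 6 called higher, the amylases Amy-p (1.85) and Amy-d (1.04). Without these 2, left out after their values were seen, the gut sum was 26.01 to 171 at day 45 and 66.0 to 165 at day 3. Of these markers the fat body gene Yp1 was listed at 0 in all 3 day 3 libraries. Neuron markers summed to 10729 to 10954 at day 45 and 15651 to 19555 at day 3, with 4 of 5 called lower. Photoreceptor markers summed to 101535 to 180060 at day 45 and 164004 to 190406 at day 3, with 4 of 6 lower. Glia markers summed to 9017 to 10060 at day 45 and 11144 to 13282 at day 3, with 3 of 6 lower and 2 higher. Their part in the rise of the peptides was not tested.

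By Pearson correlation with the mean standardised profile of the 8 tested members over 12 male libraries, the 8 most alike of 6384 other genes of mean at least 50 were Skel (0.978), CG45045 (0.969), scf (0.960), NtR (0.955), Mtkl (0.954), Mtk (0.953), PGRP-SD (0.950) and CG4576 (0.949). Likeness is of shape, not size. CG45045 averaged 201 ± 123 normalised counts at day 45 and 6.49 ± 4.97 at day 3, while Skel averaged 100.1 ± 12.2 at day 45 and 63.1 ± 7.28 at day 3. By Spearman rank correlation, 0 of these 8 genes were among the 8 most alike, though their rho was still 0.916 to 0.951.

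In the heads of day 3 females, CecB and CecC were higher in the foxo mutant than in wild type, and no diptericin or attacin was called. The authors' deposited table gives a mean over all female libraries and 1 log2 fold change of mutant over wild type per gene, with no value per library. In that table CecC was higher in the mutant by 0.77 (SE 0.21, adjusted p = 0.00314), a fold of 1.71 at a mean of 9.13 normalised counts. CecB was higher by 0.55 (SE 0.17, adjusted p = 0.0113), a fold of 1.47 at a mean of 4.27. These were 2 of the 7 members with an adjusted p in the authors' deposited table, against 6.26% of 9860 genes called higher. Both rest on few reads, and of the 1191 genes of mean under 10 with an adjusted p in that table, 30 (2.52%) were called.

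The remaining members of the authors' deposited table lay near 0. DptA was at 0.11 (SE 0.13, adjusted p = 0.716) at a mean of 91.6, and AttC at 0.08 (SE 0.16, adjusted p = 0.871) at a mean of 297. There too, in the authors' deposited table, AttA was at 0.17 (SE 0.13, adjusted p = 0.507), AttD at 0.24 (SE 0.14, adjusted p = 0.295) and CecA1 at 0.09 (SE 0.12, adjusted p = 0.752). DptB (0.16, SE 0.15), AttB (0.23, SE 0.16) and CecA2 (-0.04, SE 0.05) carry no p-value there, 3 of only 11 such genes among 10480. A missing p leaves no call, and whether the authors shrank their fold changes is not stated. Among the 10 genes the smallest SE, 0.05 for CecA2, went with the lowest mean, 2.08 normalised counts. A log2 value near 0 in a scarce gene, and the folds of CecB and CecC, need not give the full size of a change. This was not tested. In all, 9 of the 10 log2 values were positive, beside 50.9% of all genes, with a median of 0.17 beside 0.004. The 10 genes share the same libraries and are not separate observations of the mutant, so these values are given as a description.

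**Figure D5:**
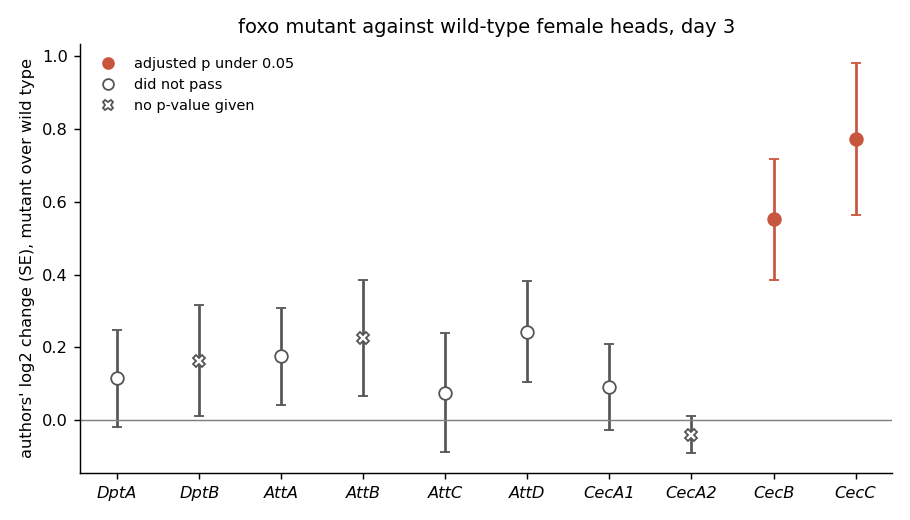
The authors' deposited log2 change of foxo mutant over wild-type female heads at day 3 for the 10 genes, with bars of the authors' SE; red filled points have an adjusted p under 0.05, crosses have no p-value. CecC at 0.77 and CecB at 0.55 are the points called.

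Around them in the authors' deposited table, 8 of 20 other defence peptides with an adjusted p were called higher and 1 lower, where 6.26% of all genes were called higher and 6.51% lower. Toll pathway genes had 5 of 18 called higher and none lower, among them PGRP-SA (1.07). The activating arm of the Imd pathway had 1 of 17 higher, Rel (0.31), and 3 lower. Its restraining arm had 1 of 11 higher, PGRP-LB (0.70), and none of the Turandot genes was called. The counts called higher in these arms lie near the share over all genes and, on that side, show nothing particular to the pathway. The 3 activating genes called lower were Uev1A (-0.37), Diap2 (-0.27) and ben (-0.25), beside 6.51% of all genes called lower. Hemocyte markers were called higher in 8 of 12 and lower in none, fat body markers higher in 5 of 10 and lower in 2, and neuron markers lower in 5 of 6. The table gives no level per library, so their summed levels are not given, and their part in CecB and CecC was not tested.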

How the data were processed

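Per the submitters' processing notes, the authors used STAR, HTSeq and DESeq, with dm6 as the build and versions not given in the sources used here. Per the labels' protocols, RNA came from whole heads by Trizol, with polyadenylated RNA selected. The male table was deposited as normalised counts per gene and library, a signal scaled by the authors. All its values were whole multiples of 1 read's value (tolerance 0.001), so reads could be recovered. Count tests were kept to 9 of the 12 libraries as a precaution, since the steps of the other 3 lie near 1; read numbers in the text use all 12. For females only the authors' deposited log2 fold change, SE, statistic (a score), p-value and adjusted p-value were used, at the same threshold, with the direction read from the table's name.

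Log2(normalised count + 1) of 8921 genes was fitted with limma 3.58.1 in R 4.3.3 with an intensity trend, in 1 model of 4 ages, with Benjamini-Hochberg adjustment at 0.05. The pseudocount understates changes of low genes. The fit was tested on simulated counts that gave every gene the same spread setting and folds smaller than the members' day 45 changes. That test does not show how the fit does on genes that vary as much as the members. edgeR 4.0.16 and DESeq2 1.42.0 were alternatives. Members and lists were chosen with earlier results of these data known. Named were all members, foxo, up to 4 called genes per list (mean at least 20, by size of the day 45 change) and the 8 genes of most like pattern.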

Additional observations from a re-analysis of the deposited data

How the results depend on the processing

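The 8 tested genes were called higher at day 45 against day 3 in every alternative in which they were tested, except CecA2 with DESeq2 on 9 libraries (log2 3.96, adjusted p = 0.173). CecC is among the 8 although it passed the main filter only through day 45, where it was high, so its calls are given as a description. The number of genes called in that comparison was 3184, 1941 with DESeq2, and 2517 to 3192 with 1 library left out. At day 30 against day 3, members called ranged from 6 to 7 and genes from 2120 to 2982 with 1 library left out. At day 15 against day 3, where 3 members and 1193 genes were called, pseudocount 10 called 1 member, and DESeq2 (664 genes), edgeR and limma on the same 9 libraries called 0 members. DESeq2 gave no adjusted p there for some members, AttA among them, so its 0 is not over all 8 tested genes. Leaving out 1 library gave 0 to 5 members and 617 to 1432 genes. At day 30 against day 15 (0 members, 171 genes), the replicate block called 2 members, and only the 2 ages in the fit called 1 member and 286 genes. Leaving out 1 library gave 0 to 6 members and 13 to 293 genes. At day 45 against day 30 (0 members, 37 genes), the replicate block called 3 members, pseudocount 10 called 2 and only the 2 ages in the fit called 4. Leaving out 1 library gave 0 to 4 members and 3 to 99 genes. CecA2 at day 15 against day 3 (-0.19) turned positive with pseudocount 10 (0.018), edgeR (0.24), limma on 9 libraries (0.015) and its sum with CecA1 (1.40), and lay between -1.48 and 0.81 with 1 library left out. Among genes of mean at least 50 in the authors' deposited table, 0 members were called. That limit leaves out CecB (mean 4.27) and CecC (mean 9.13) by their level, so it is no check of their calls. The 8 genes most alike by Spearman and the 8 most alike by Pearson shared 0 genes, though the latter had Spearman rho of 0.916 to 0.951. The sum of close copies and the limma fit on 9 libraries were chosen after seeing the data. Count tests of day 30 and of all ages were not run, since day 30 kept 1 library. For these shifts the cause was not tested.

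Replicate numbers did not pair the libraries: of 18 same-numbered pairs, deviations correlated at -0.25 to 0.15, and 4 of 12 libraries were closest to their own number. At about 1 normalised count per read, AttD, CecB and CecC rest on few reads at days 3 to 30.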
